A study of Mus musculus with 12 samples.

Results

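Storage and breakdown of neutral fat were followed through 10 genes of gastrocnemius, a calf muscle of the mouse. They were chosen by name, as genes whose gene symbol stands beside a probe of the array. Pnpla2, Abhd5, Lipe and Mgll act in lipolysis, Plin2 and Plin4 encode droplet coat proteins, and Lpin1, Dgat1, Dgat2 and Gpam act in triglyceride synthesis. They are 10 of the 19437 genes that have probes with 1 symbol, and 23 probes measured them. Each of the 12 arrays compared RNA of 2 muscles in 2 dyes, so every value is a ratio between 2 genotypes. All mice were males aged 12 weeks of the strain C57BL6/J x sv129. By their titles, 3 arrays each compared the PGC-1alpha -/- knockout (alpha arrays), the PGC-1beta f/f/Mlc1fCre knockout (beta arrays) and the mice with both knockouts, PGC-1alpha-/- beta f/f/Mlc1fCre (double arrays), with PGC-1beta f/f mice. The other 3 arrays compared the double knockout with the PGC-1alpha -/- knockout (direct arrays). The floxed PGC-1beta f/f mice therefore served as the reference of the first 3 groups and kept both genes, while the mice on both sides of the direct arrays lacked PGC-1alpha. The Mlc1f promoter that drives the Cre recombinase belongs to a fast myosin light chain gene, so PGC-1beta was deleted in muscle fibres and other cells of the tissue kept it. The labels do not say how many mice supplied the RNA, so the p-values rest on the variation from array to array, which may be technical.

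Muscle fibres keep part of their fatty acids as triglyceride in lipid droplets. Lipolysis releases them in steps: adipose triglyceride lipase (Pnpla2, with its activator Abhd5) removes the first fatty acid, hormone-sensitive lipase (Lipe) the next, and monoglyceride lipase (Mgll) the last. Synthesis runs from glycerol 3-phosphate acyltransferase (Gpam) through the phosphatidate phosphatase lipin 1 (Lpin1) to the diacylglycerol acyltransferases (Dgat1, Dgat2), and perilipins (Plin2, Plin4) coat the droplet. PGC-1alpha and PGC-1beta are coactivators of nuclear receptors such as the estrogen-related receptors and the peroxisome proliferator-activated receptors, which bind DNA elements built on the half-site AGGTCA.

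The promoters of Pnpla2, Abhd5 and Lpin1 are shown because they are the tested genes that passed against floxed muscle in the comparisons below. Each is a window of 300 bases from RefSeq (GRCm38.p6), 250 before and 50 from the start of the transcript, with capitals on the half-site AGGTCA or its reverse complement. The Lpin1 window lies within the gene, whose upstream end on the minus strand is at base 16653903. It therefore belongs to a transcript that starts inside the gene.
Pnpla2, chr7:141454938-141455237, plus strand: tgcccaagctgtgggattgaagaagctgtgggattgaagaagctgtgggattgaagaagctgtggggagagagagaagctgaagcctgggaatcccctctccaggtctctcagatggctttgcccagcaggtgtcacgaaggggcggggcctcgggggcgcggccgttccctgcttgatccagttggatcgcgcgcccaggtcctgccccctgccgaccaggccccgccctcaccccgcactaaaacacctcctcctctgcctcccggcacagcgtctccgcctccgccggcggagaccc
Abhd5, chr9:122351366-122351665, plus strand: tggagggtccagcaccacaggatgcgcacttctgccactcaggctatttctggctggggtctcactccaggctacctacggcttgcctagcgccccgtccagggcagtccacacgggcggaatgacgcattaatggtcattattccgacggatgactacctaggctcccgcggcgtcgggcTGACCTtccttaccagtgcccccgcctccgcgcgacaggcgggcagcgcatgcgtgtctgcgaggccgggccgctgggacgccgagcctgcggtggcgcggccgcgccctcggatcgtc
Lpin1, chr12:16610917-16611216, minus strand: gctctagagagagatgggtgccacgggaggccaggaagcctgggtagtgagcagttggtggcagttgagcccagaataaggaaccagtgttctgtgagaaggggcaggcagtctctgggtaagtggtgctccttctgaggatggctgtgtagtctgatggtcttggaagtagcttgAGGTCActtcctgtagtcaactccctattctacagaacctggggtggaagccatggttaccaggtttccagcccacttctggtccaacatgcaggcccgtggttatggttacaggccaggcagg
The Abhd5 window held the half-site on the strand opposite to the printed one, starting at position -69 from the start of the transcript. The Lpin1 window held it on the printed strand from position -74, and the Pnpla2 window held none. On both strands, the half-site was found in 16.3% of all 32851 mouse promoter windows of this length and in 4 of 11 windows of 8 members, those of Plin2, Abhd5, Lpin1 and Gpam. The estrogen-related receptor motif TNAAGGTCA and the peroxisome proliferator response element (half-sites in direct repeat, spaced by 1 base), both of which contain the half-site, were in 0 of the 11 windows, against 1.28% and 0.0396% of all windows. TGACGTCA, the motif of cyclic AMP signalling, was in 0 of the 11 and in 1.79% of all windows. The E-box CACGTG was in 3 of the 11, those of Plin2, Mgll and Lipe, and in 7.15% of all windows. These matches describe letters and are no evidence of binding.

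Each value below is a centred log2 ratio, the log2 of the deposited ratio of knockout (Cy5) to reference (Cy3) minus that of the median gene of its array, averaged over the probes of a gene. Between 47.4% and 70.6% of probes were kept per array. The third beta array was left out: 27.6% of its probes had no defined ratio, it ran against beta 1 (r = -0.44 over all probes), and the authors' deposited beta means equalled the mean of the other 2 beta arrays. Double 3, which was kept, also correlated negatively over all probes with double 1 of its own group (r = -0.20), alpha 1 (r = -0.33) and beta 1 (r = -0.31). Its correlation was 0.18 with double 2, 0.47 with the omitted beta 3 and 0.49 with direct 3. Each direction follows the labelled dyes. A trend with brightness differed between arrays. The median log2 ratio of bright probes (8292 kept on all 12 arrays) minus that of dim probes (10609 kept on 3 or fewer) was 0.94 to 2.28 on the alpha arrays, 1.98 and 0.80 on beta 1 and 2, 1.49, -0.10 and -2.30 on double 1 to 3, and -0.97, -0.62 and -3.30 on direct 1 to 3. Ppargc1a, the gene of PGC-1alpha, was at -0.52, -2.57 and -1.29 on the alpha arrays and passed limma's test (adjusted p = 0.0177). It was at -0.88, -1.96 and -1.07 on the double arrays (adjusted p = 0.076) and at 1.01, 0.59 and 0.79 on the direct arrays (adjusted p = 0.14), and missed the threshold in both. Ppargc1b, the gene of PGC-1beta, was higher on the alpha arrays, at 0.71, 1.34 and 1.35 (limma, adjusted p = 0.0251). It was at 0.62 and 0.90 on the beta arrays, above the floxed reference, at 0.35, 0.30 and 0.27 on the double arrays, and at -0.12, -1.39 and -1.82 on the direct arrays (adjusted p = 0.0306). Whether its probes lie in the deleted part is not given in the sources used here, so this gene checks nothing on the beta and double arrays, and beta and double below name arrays by their titles. Because only ratios were deposited, the abundance of muscle markers could not be read.

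A fit over 11381 genes gave each group a mean and all 11 arrays 1 shared spread (limma, Benjamini-Hochberg adjustment over all these genes, threshold 0.05). Lipe, Dgat1 and Gpam had too few values to be tested, which left 7 of the 10 genes. The calls over all genes were 1260 higher and 612 lower on the alpha arrays, 111 and 179 on the double arrays, 631 and 937 on the direct arrays and 146 and 401 for the non-additive response described below. Without centring, where the median gene of the direct comparison stood at -0.76, these splits were 96 and 86, 10 and 31, 38 and 1962, and 6 and 0. The genes that passed came from both lipolysis and synthesis. Pnpla2 was lower in the double knockout than in floxed muscle, Lpin1 and Abhd5 were higher in the alpha knockout, and Pnpla2, Lpin1 and Dgat2 were lower in the double than in the alpha knockout. On the beta arrays 0 of the 7 passed. There Abhd5 and Lpin1 had an unadjusted p under 0.05 in limma, as had 1934 of all genes. With beta 3 kept in the fit, each of the 6 calls named here was lost (limma, adjusted p = 0.0664 to 0.193).

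**Figure D1:**
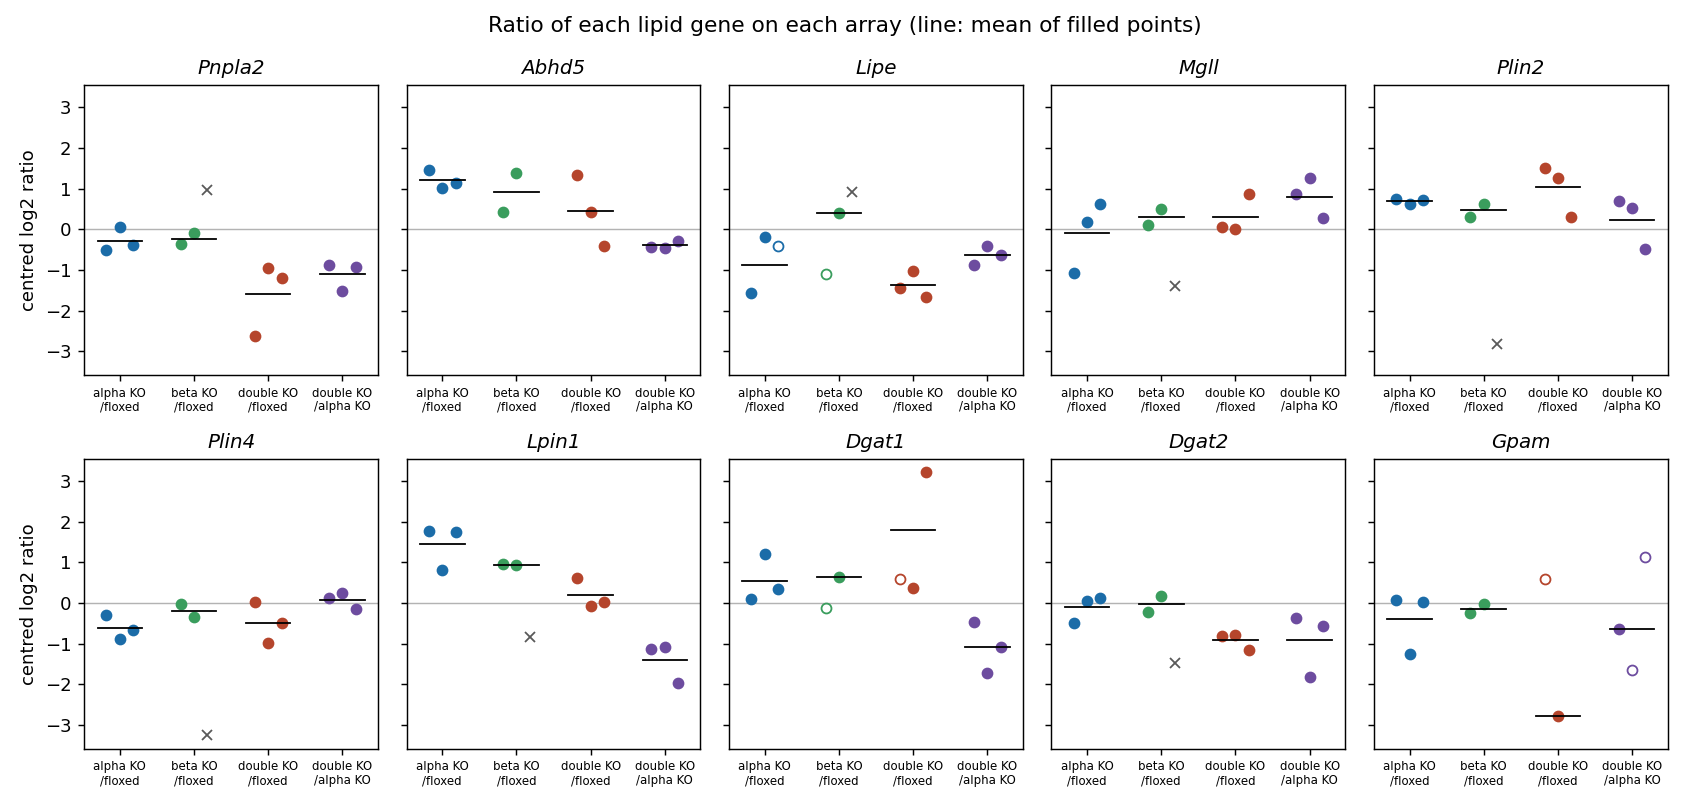
Centred log2 ratio (vertical axis) of each of the 10 genes on each array, by title group (KO, knockout). Filled points entered the means (lines), open points are dim or equal signals that were left out, and crosses mark beta 3, which was omitted; the 3 Pnpla2 values of the double arrays lie at or below -0.95, and the Lpin1 values fall from 0.81 to 1.78 on the alpha arrays to -1.08 and below on the direct arrays.

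Pnpla2, on chromosome 7 (141455188 to 141460743, GRCm38.p6), encodes the lipase that starts triglyceride breakdown. Its log2 ratio was -0.51, 0.06 and -0.39 on the alpha arrays and -0.36 and -0.10 on the beta arrays. It was -2.64, -0.95 and -1.19 on the double arrays and -0.89, -1.51 and -0.92 on the direct arrays. Every double and direct array thus lay below every alpha and beta array, with the deepest value on double 1. The mean on the double arrays was -1.59 ± 0.91 (SD, n = 3), a 3.02-fold lower ratio with a standard error of 0.30 and an adjusted p of 0.0246 in limma. Pnpla2 was the only one of the 7 genes called there, and 2.55% of all genes were called in this comparison (0.975% as higher and 1.57% as lower). On the direct arrays its mean was -1.11 ± 0.35 (SD, n = 3), or 2.15-fold lower (adjusted p = 0.0362 in limma). In a whole muscle, fewer cells that express a gene and less RNA per cell cannot be told apart.

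Both probes of Pnpla2 were below 0 on each double and direct array, including those where the second was dim. The first probe was kept on all 12 arrays. It stood at -1.88, -1.20 and -1.20 on the double arrays and at -0.89, -1.17 and -1.11 on the direct arrays, a narrow spread next to that of the gene. In a fit with each probe as its own feature, the first probe gave -1.42 on the double arrays (limma, adjusted p = 0.00743; 3.19% of 14420 probes called) and -1.06 on the direct arrays (limma, adjusted p = 0.00801; 20.2% of probes called). The second probe was kept on 8 arrays and set the deep gene value of double 1, where it read -3.46. The authors' deposited table averages the uncentred ratios of these same arrays, so it is no independent measurement. It lists the first probe at a mean ratio of 0.37 with an SEM of 0.06 for the double knockout, against 0.81 for the alpha and 0.84 for the beta knockout. The second probe is listed there at 0.51 with an SEM of 0.22, against 0.93 and 0.71. Without double 1 the gene mean on the double arrays was -1.07 (limma, adjusted p = 0.0776) and without double 3 it was -1.79 (limma, adjusted p = 0.0513), so the call at the gene level rested on both. On the direct arrays the call was lost without any single direct array (adjusted p = 0.067 to 0.16 in limma, -0.90 without direct 2), and without alpha 3, beta 1 or beta 2 (0.0541 to 0.0571), which enter through the shared spread.

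Abhd5 (chromosome 9, 122351616 to 122381524) encodes the activator of that lipase, also known as CGI-58. It read 1.46, 1.02 and 1.13 on the alpha arrays and 0.44 and 1.39 on the beta arrays. It read 1.34, 0.44 and -0.42 on the double arrays and -0.44, -0.46 and -0.29 on the direct arrays. All alpha and beta arrays were above the reference and all direct arrays below it, while the double arrays spread over both sides. The alpha mean of 1.20 ± 0.23 (SD, n = 3) was 2.30-fold higher than floxed muscle (limma, standard error 0.30, adjusted p = 0.0231). The means on the beta arrays, 0.91 ± 0.67 (SD, n = 2; limma, adjusted p = 0.246), the double arrays, 0.45 ± 0.88 (SD, n = 3; adjusted p = 0.46), and the direct arrays, -0.40 ± 0.09 (SD, n = 3; adjusted p = 0.395), did not pass. Leaving out alpha 1, 2 or 3 gave 1.08, 1.30 and 1.24 with limma adjusted p-values of 0.134, 0.067 and 0.109. The 2 probes of Abhd5 were both above 0 on the 3 alpha arrays. They differed on the direct arrays, where the first had a mean of -1.16 and the second of 0.40, and on beta 1, where they read 1.62 and -0.83. In the fit by probe the first passed on the direct arrays (limma, adjusted p = 0.0452), so the gene value near 0 there is an average over probes that differ.

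Lipe, hormone-sensitive lipase (chromosome 7, 25379527 to 25398486), was not tested, since it was kept on 1 of the 2 beta arrays. Its log2 ratio was -1.57 and -0.19 on alpha 1 and 2, 0.40 on beta 2, -1.43, -1.04 and -1.67 on the double arrays and -0.87, -0.42 and -0.63 on the direct arrays. All double and direct values were below the reference. Of its 3 probes, the first was dim or undefined on every array, the second was kept on 7 arrays and the third on 9. The second and the third disagreed on the direct arrays, with means of 0.54 and -1.79, while the third stood at -1.41 ± 0.30 (SD, n = 3) on the double arrays. The authors' deposited table, an average over the same arrays, lists the third probe at 0.37 with an SEM of 0.06 for the double knockout.

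Mgll, monoglyceride lipase (chromosome 6, 88724412 to 88828360), passed in none of the comparisons. Its log2 ratio was -1.06, 0.18 and 0.62 on the alpha arrays, 0.11 and 0.49 on the beta arrays, 0.05, -0.01 and 0.88 on the double arrays and 0.87, 1.27 and 0.28 on the direct arrays. The direct arrays were all above 0, with a mean of 0.80 ± 0.50 (SD, n = 3; limma, adjusted p = 0.119). The gene value averages probes that went opposite ways. On the alpha arrays the first probe was at -0.59 ± 0.24 (SD, n = 3) and the fourth at 1.19, which passed the fit by probe (limma, adjusted p = 0.0062; 25.2% of probes called). On the direct arrays the order turned, with the first at 0.93 and the fourth at -0.44. The third probe, kept on 3 arrays only, also entered the gene values there, at -3.60 on alpha 1 and at 2.33 and 3.28 on direct 1 and 2. No direction is therefore given for Mgll.

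Plin2, on chromosome 4 (86626910 to 86670217), encodes the perilipin found on droplets of most tissues. It read 0.74, 0.62 and 0.71 on the alpha arrays, 0.31 and 0.63 on the beta arrays, 1.52, 1.27 and 0.31 on the double arrays and 0.68, 0.52 and -0.49 on the direct arrays. Its single probe lay above floxed muscle on all 8 arrays against floxed RNA that were used. The means were 0.69 ± 0.06 (SD, n = 3) for the alpha, 0.47 ± 0.23 (SD, n = 2) for the beta and 1.03 ± 0.64 (SD, n = 3) for the double arrays. None passed in limma (adjusted p = 0.115, 0.509 and 0.083). The 95% interval of the double mean ran from 0.41 to 1.65.

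Plin4, a perilipin of adipose tissue and muscle (chromosome 17, 56100587 to 56109948), leaned the other way. Its log2 ratio was -0.29, -0.88 and -0.67 on the alpha arrays, -0.03 and -0.35 on the beta arrays, 0.03, -0.97 and -0.50 on the double arrays and 0.12, 0.24 and -0.15 on the direct arrays. The alpha arrays were all below the reference, with a mean of -0.61 ± 0.30 (SD, n = 3), and did not pass (limma, adjusted p = 0.0924). With the array number as a block on the arrays against floxed RNA, the same mean passed (limma, adjusted p = 0.0484). The double mean was -0.48 ± 0.50 (SD, n = 3; adjusted p = 0.299 in limma) and the direct mean 0.07 ± 0.20 (SD, n = 3; adjusted p = 0.861).

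Lpin1 (chromosome 12, 16535669 to 16653903) encodes lipin 1, which makes diacylglycerol from phosphatidate and in liver also acts in the nucleus as a partner of PGC-1alpha. Its log2 ratio was 1.78, 0.81 and 1.74 on the alpha arrays and 0.96 and 0.93 on the beta arrays. It was 0.61, -0.08 and 0.03 on the double arrays and -1.14, -1.08 and -1.98 on the direct arrays. The alpha and beta arrays were all above floxed muscle, the double arrays lay near it, and the direct arrays lay below the alpha knockout. The alpha mean of 1.44 ± 0.55 (SD, n = 3) was 2.72-fold higher (limma, standard error 0.27, adjusted p = 0.00726). With Abhd5, it made 2 of the 7 genes called in the alpha knockout, where 16.4% of all genes were called (11.1% as higher and 5.38% as lower). The direct mean of -1.40 ± 0.50 (SD, n = 3) was 2.64-fold lower (limma, adjusted p = 0.00982). With Pnpla2 and Dgat2, it made 3 of the 7 genes called there, all lower, where 13.8% of all genes were called (5.54% as higher and 8.23% as lower). The beta mean of 0.95 ± 0.02 (SD, n = 2) did not pass (limma, adjusted p = 0.183; 0.00879% of all genes called, and 0 genes with the array number as a block), and the double mean of 0.19 ± 0.37 (SD, n = 3) was not distinguished from 0 (limma, adjusted p = 0.757).

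The 4 probes of Lpin1 gave the same picture on the alpha and direct arrays. On double 2 they read 0.51, -0.37, -0.32 and -0.15, and on double 3 -0.34, -0.19, 0.25 and 0.38. Each was above 0 on every alpha array and below 0 on every direct array. In the fit by probe, all 4 passed on the alpha arrays, with means of 1.16 to 1.57 (limma, adjusted p = 0.00481 to 0.0119), and on the direct arrays, with means of -0.90 to -1.73 (limma, adjusted p = 0.00608 to 0.0194). The authors' deposited table, an average over the same arrays, lists them at mean ratios of 2.41 to 3.43 for the alpha, 1.74 to 2.14 for the beta and 0.94 to 1.28 for the double knockout. Without alpha 1 the gene mean was 1.28 (limma, adjusted p = 0.0583), without alpha 3 it was 1.29 (limma, adjusted p = 0.0674), and without direct 3 the direct mean was -1.11 (limma, adjusted p = 0.0681).

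**Figure D2:**
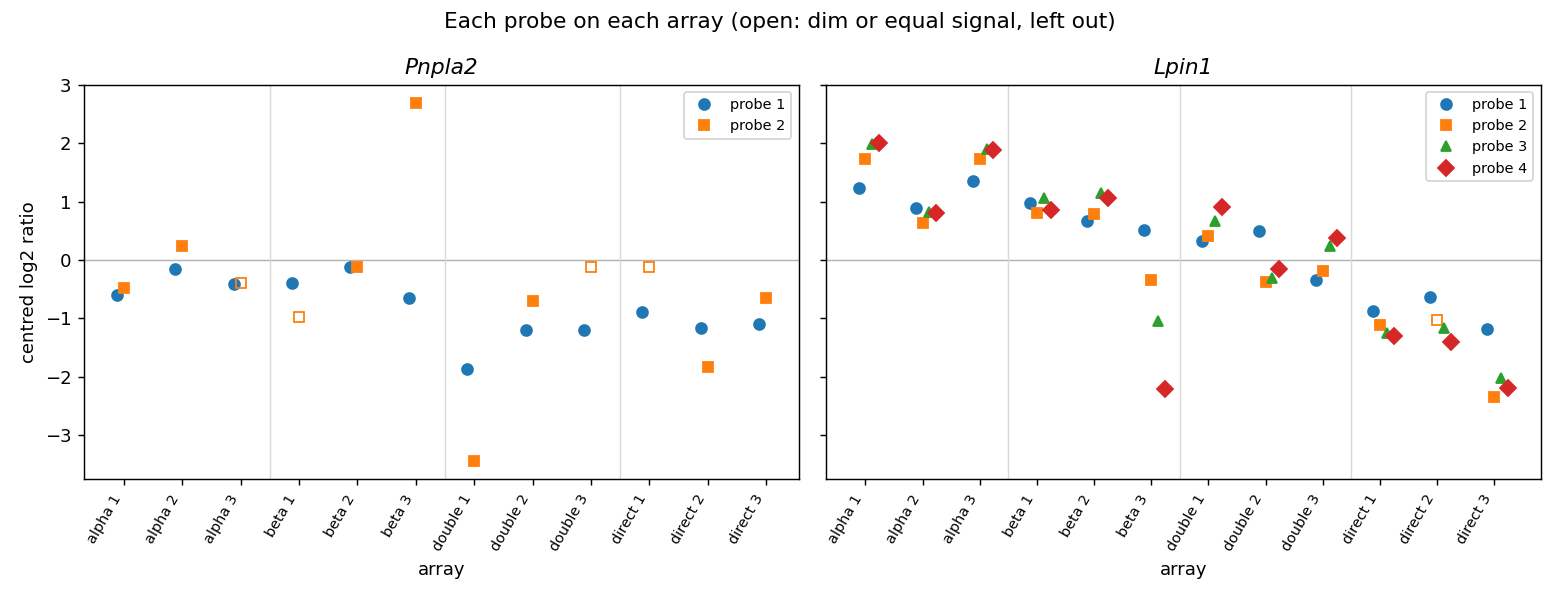
Centred log2 ratio (vertical axis) of each probe of Pnpla2 and Lpin1 on each of the 12 arrays (horizontal axis), 1 marker shape per probe, open where a dim or equal signal was left out. The first Pnpla2 probe stands at -0.89 to -1.88 on the double and direct arrays. The 4 Lpin1 probes share a sign on each array except double 2, double 3 and beta 3, and they spread most widely on beta 3.

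The values of Lpin1 are set beside the brightness trend of the arrays. They were 0.61 or more on the 6 arrays where bright probes exceeded dim ones by 0.80 or more, and lowest on direct 3, where bright minus dim probes stood at -3.30. Double 3 was an exception, with Lpin1 at 0.03 and bright minus dim probes at -2.30, while direct 1 and 2 had -1.14 and -1.08 at -0.97 and -0.62. Over the 11 arrays, 682 of 8252 other genes (8.26%) had a Pearson correlation of 0.9 or more with Lpin1. The closest were Zw10 (r = 0.989), Tgoln1 (r = 0.988) and Tmem9b (r = 0.987), which encode a trafficking and kinetochore protein, a protein of the trans-Golgi network and a lysosomal membrane protein. For Pnpla2 only 6 genes (0.0727%) reached 0.9, led by Slc48a1 (r = 0.939), a haem transporter, Perm1 (r = 0.934), a muscle regulator of oxidative genes that acts with PGC-1 and the estrogen-related receptors, and Flnc (r = 0.917), filamin C of the sarcomere. The means of Perm1 were 0.12 on the alpha, 0.13 on the beta, -0.77 on the double and -0.63 on the direct arrays. These correlations describe arrays that share reference RNA and the brightness trend, and the part of that trend in the values of Lpin1 was not tested. With each array centred instead on the 8253 genes with a value on all 11 arrays, an alternative added after seeing the data, the calls over all genes split into 955 higher and 895 lower on the alpha arrays and 205 higher and 299 lower for the non-additive response. Lpin1 was at 1.28 on the alpha arrays (limma, adjusted p = 0.00693) and at -1.30 on the direct arrays (limma, adjusted p = 0.00746). Pnpla2 was at -1.61 on the double arrays under that centring (limma, adjusted p = 0.0324) and at -1.01 on the direct arrays (limma, adjusted p = 0.065).

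**Figure D3:**
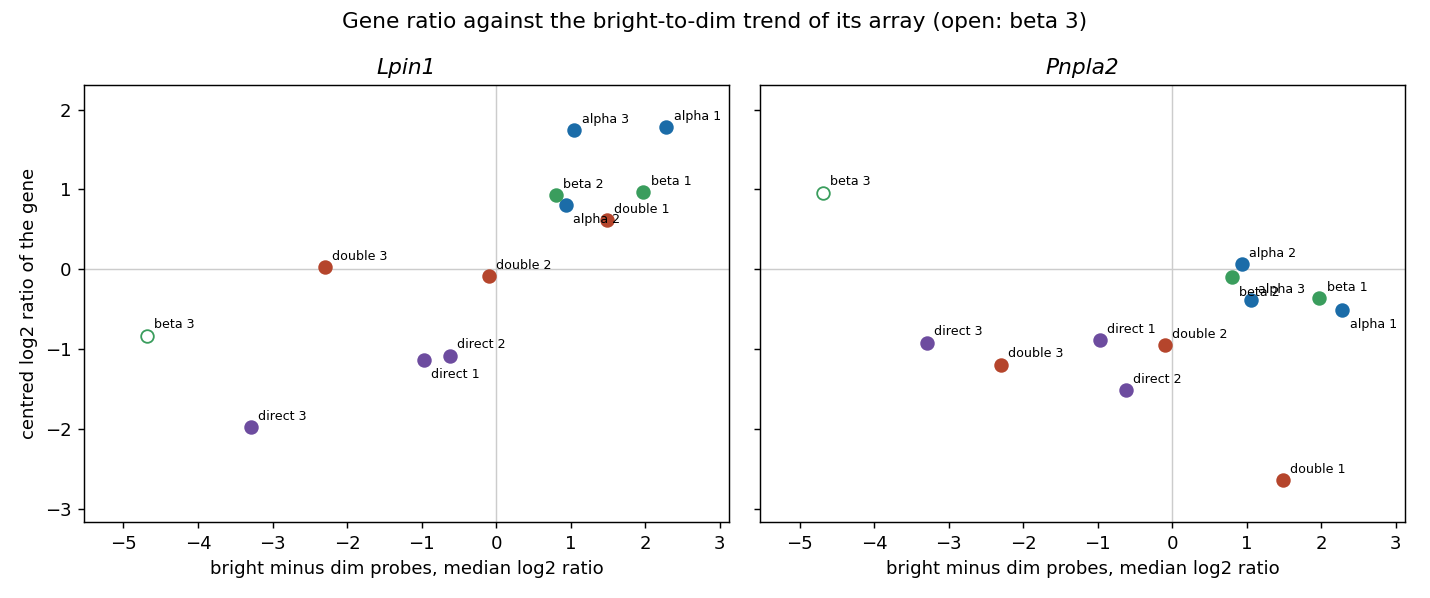
Centred log2 ratio of Lpin1 and Pnpla2 (vertical axis) against the median log2 ratio of bright minus dim probes (horizontal axis), 1 point per array, beta 3 open. Lpin1 is highest on alpha 1 and alpha 3 at the right and lowest on direct 3 at the left, while Pnpla2 is deepest on double 1, at 1.49 on the horizontal axis.

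Dgat2, a diacylglycerol acyltransferase of the endoplasmic reticulum and droplet surface (chromosome 7, 99153663 to 99182713), read -0.48, 0.05 and 0.12 on the alpha arrays and -0.23 and 0.18 on the beta arrays. It read -0.82, -0.78 and -1.17 on the double arrays and -0.37, -1.81 and -0.58 on the direct arrays. The double values lay below all alpha and beta values, at a mean of -0.92 ± 0.21 (SD, n = 3) that did not pass (limma, adjusted p = 0.109). Their spread is that of averages over probes that disagreed, the first at -0.19, 0.09 and -1.93 and the third at -1.50, -0.88 and -0.42. The direct mean of -0.92 ± 0.78 (SD, n = 3), 1.89-fold lower, passed narrowly (limma, adjusted p = 0.0497). That call rested on direct 2, where 1 of 3 probes read -4.87: without direct 2 the mean was -0.47 (limma, adjusted p = 0.27), and with the median over probes it was -0.36 (limma, adjusted p = 0.279). It passed in 2 of the 11 fits that left out 1 array each, those without direct 1 (adjusted p = 0.0411) and without double 3 (0.0468). With the array number as a block it was lost (limma, adjusted p = 0.0589, or 0.058 with the block on the arrays against floxed RNA only).

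Dgat1, the other acyltransferase (chromosome 15, 76502012 to 76512021), and Gpam, the mitochondrial enzyme of the first acylation (chromosome 19, 55067635 to 55127319), were not tested. Dgat1 read 0.10, 1.20 and 0.34 on the alpha arrays, 0.63 on beta 2, 0.37 and 3.23 on double 2 and 3, and -0.48, -1.71 and -1.09 on the direct arrays. The high value of double 3 came from 1 probe, and the 3 direct values were all below 0. Gpam, with 1 probe kept on 7 arrays, read 0.07, -1.26 and 0.02 on the alpha arrays, -0.25 and -0.03 on the beta arrays, -2.79 on double 2 and -0.64 on direct 1.

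**Figure D4:**
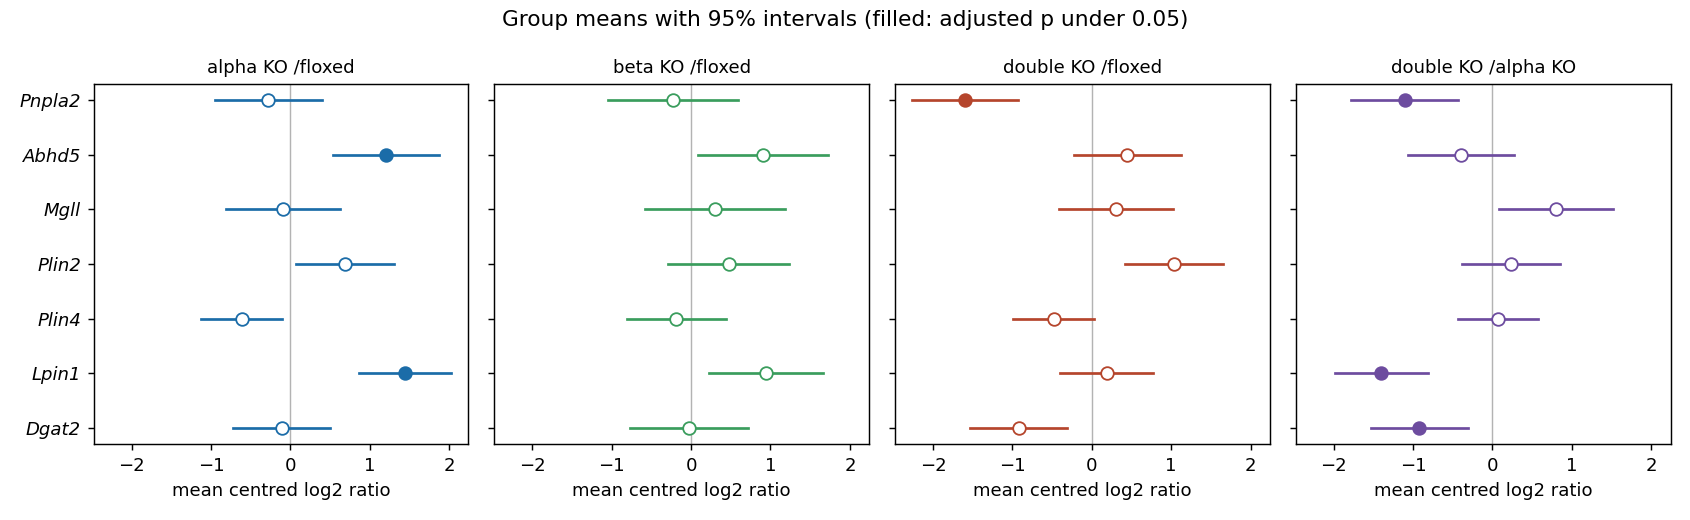
Mean centred log2 ratio (horizontal axis) of the 7 tested genes in the 4 comparisons, with 95% intervals from limma; filled points had an adjusted p under 0.05. Pnpla2 is filled for the double knockout against floxed and alpha knockout muscle, Abhd5 and Lpin1 for the alpha knockout, and Lpin1 and Dgat2 for the direct comparison.

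Lipolysis and synthesis genes were then compared on each array, as the median of the measured lipolysis genes minus that of the synthesis genes. The difference was -0.87, -0.31 and 0.39 on the alpha arrays, 0.34 and 0.04 on the beta arrays, -0.59, -0.05 and -0.84 on the double arrays and -0.10, 1.27 and 0.62 on the direct arrays. The double arrays were all below 0 and the other groups were mixed or close to it. With dim signals kept the difference was -1.37, 0.07 and 0.34 on the double arrays and -0.90, -0.47 and -0.26 on the alpha arrays, so the double arrays were then on both sides of 0. Group means were -0.26 ± 0.63 (SD, n = 3), 0.19 ± 0.21 (SD, n = 2), -0.49 ± 0.40 (SD, n = 3) and 0.60 ± 0.69 (SD, n = 3) in the same order. In the double knockout the tested lipolysis genes had a median of 0.31 and the tested synthesis genes of -0.37, opposite to the order per array, where Lipe, Dgat1 and Gpam also count. The median of all genes was -0.01. No common direction of either class is read from these values, which rest on 2 to 4 genes a class.

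**Figure D5:**
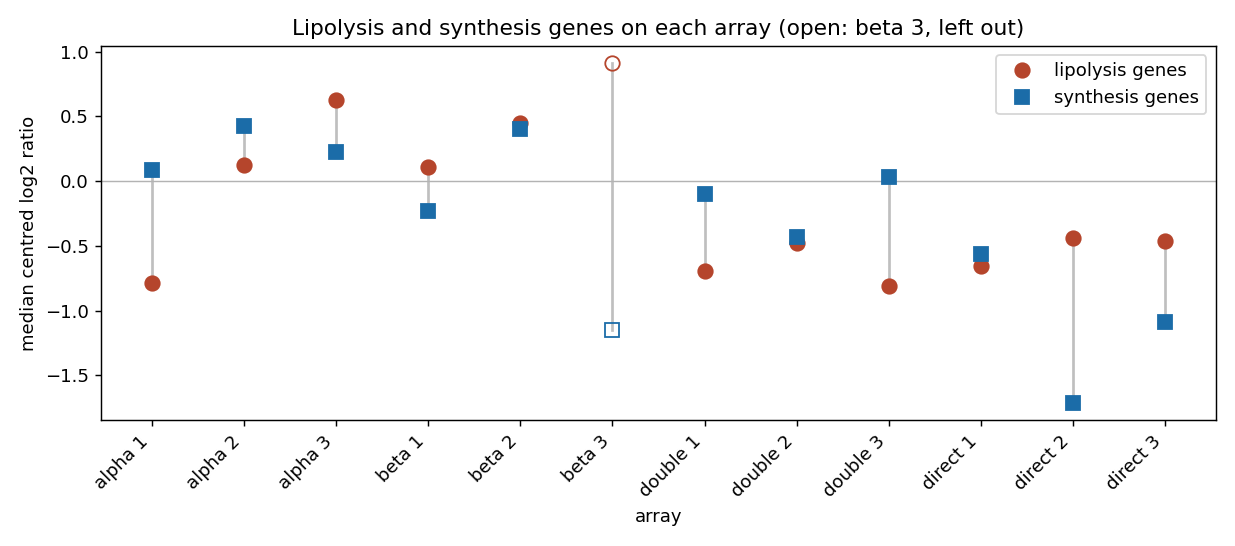
Median centred log2 ratio (vertical axis) of the measured lipolysis genes (circles) and synthesis genes (squares) on each array (horizontal axis), joined by a line; open symbols are the omitted beta 3. Circles lie below squares on the 3 double arrays, by 0.05 to 0.84, and also on alpha 1, alpha 2 and direct 1, with the widest such gap on alpha 1. They lie above squares on alpha 3, beta 1, beta 2, direct 2 and direct 3.

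The double knockout was also set against each single knockout through the shared floxed reference. Against the beta knockout, Pnpla2 differed by -1.36 (95% interval -2.42 to -0.30), Dgat2 by -0.89 and Lpin1 by -0.76. None of the 7 genes passed (limma, adjusted p = 0.494 for Pnpla2), and 0.00879% of all genes, 1 of 11381, did. Against the alpha knockout through floxed RNA, Pnpla2 differed by -1.32 (limma, adjusted p = 0.215) and Lpin1 by -1.26 (limma, adjusted p = 0.177), and again 0 of the 7 passed, with 0.123% of all genes called, or 14 genes. With the array number as a block these were 6 genes, and 4 with the block on the arrays against floxed RNA only. The direct arrays gave -1.11 and -1.40 for these genes. The difference between the direct and the indirect value was 0.21 (95% interval -0.95 to 1.37) for Pnpla2 and -0.14 (95% interval -1.15 to 0.87) for Lpin1. For this difference 0% of all genes were called, and 412 of 11381 had an unadjusted p under 0.05 in limma.

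If the effects of the 2 knockouts added on the log2 scale, the double arrays would lie at the sum of the alpha and beta means. Lpin1 lay below that sum by 2.20: the alpha and beta means were 1.44 and 0.95 and the double mean was 0.19. This difference of -2.20 (95% interval -3.30 to -1.11) passed in limma (adjusted p = 0.0348), and it was the only one of the 7 genes to do so, where 4.81% of all genes were called (1.28% as higher and 3.52% as lower). All 4 probes of Lpin1 passed in the fit by probe (limma, adjusted p = 0.0235 to 0.0401; 10% of probes called). It was lost in the fits without alpha 1, alpha 3, beta 1, beta 2, double 2 or double 3, with values of -2.04 to -2.22 (limma, adjusted p = 0.072 to 0.183). It was also lost with beta 3 kept, at -1.61 (limma, adjusted p = 0.301), and with groups by channel labels, at -0.78 (limma, adjusted p = 0.547). Abhd5 differed from the sum by -1.66 and Pnpla2 by -1.09, and neither passed (limma, adjusted p = 0.107 and 0.257), but the first probe of Abhd5 did in the fit by probe, at -2.44 (limma, adjusted p = 0.0455).

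Other genes of the same pathways were counted from lists chosen by function, and each list was read beside the median of all genes, which was 0.09, 0.05, -0.01 and -0.09 on the alpha, beta, double and direct arrays. Of 12 other lipid droplet proteins, 9 were tested. Fitm1, which helps bud droplets from the endoplasmic reticulum in muscle, was at 1.18, 1.80 and 1.94 on the alpha arrays and at -0.92, -1.01 and -1.40 on the direct arrays. It passed at 1.64 in the alpha knockout (limma, adjusted p = 0.00343) and at -1.11 in the direct comparison (limma, adjusted p = 0.0174). Its relative Fitm2 passed on the direct arrays at -1.57 (limma, adjusted p = 0.0025), while Plin3, a perilipin that moves between cytosol and droplets, was higher there at 1.33 (limma, adjusted p = 0.0202). Cidea, a droplet fusion protein, was lower on the alpha arrays at -1.39 (limma, adjusted p = 0.00956). Plin5, the perilipin of oxidative tissues that binds Pnpla2 and Abhd5, was at -1.38, -1.65 and -1.45 on the double arrays, a mean of -1.49 ± 0.14 (SD, n = 3; limma, adjusted p = 0.0496). Low values also stood on the alpha arrays, at -0.11, -1.48 and -1.67, and Plin5 was at -0.71 and -0.30 on the beta arrays. The direct arrays had it at -1.14, -0.25 and 0.58, and it was called in none of these 3 groups. The list thus had 1 gene higher and 1 lower on the alpha arrays, 1 lower on the double arrays, and 1 higher and 2 lower on the direct arrays, with medians of 0.09, 0.18 and -0.27. Over all genes, 16.4%, 2.55% and 13.8% were called in these comparisons, and the lists below are read beside the same shares.

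Among 10 other lipases, 6 were tested, and Abhd6, a monoglyceride hydrolase, passed on the alpha arrays at 1.04 (limma, adjusted p = 0.049) and on the direct arrays at -1.21 (limma, adjusted p = 0.0328). In the double knockout none passed, and Ces1d, a carboxylesterase, was at 1.22 (limma, adjusted p = 0.0982). Of 19 other genes of glycerolipid synthesis, 15 were tested, with list medians of 0.11, 0.20, 0.09 and 0.10 over the 4 groups. Mogat1, a monoacylglycerol acyltransferase, was at -1.43, -1.27 and -1.60 on the alpha arrays (mean -1.43; limma, adjusted p = 0.00863), and Agpat4 was at 0.93 on the direct arrays (limma, adjusted p = 0.0193). Lipid regulators were tested for 7 of 12 genes. Srebf1, a transcription factor of lipid synthesis, was at 1.12 on the alpha arrays (limma, adjusted p = 0.0205). Esrra, the estrogen-related receptor alpha, was at -1.60, -0.55 and -1.64 on the double arrays and at -1.30, -1.44 and -1.04 on the direct arrays, and passed in both (mean -1.26 in each; limma, adjusted p = 0.0371 and 0.0146). Nr1h3, the liver X receptor alpha, was lower on the direct arrays at -0.72 (limma, adjusted p = 0.0416). On the beta arrays no gene of these lists passed, and the largest value was 1.35, for Abhd6 (limma, adjusted p = 0.14).

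Fat cells between the fibres express the same lipases, so 10 markers of fat cells were read beside these genes. Of them 7 had probes on the array and 4 were tested, and 0 passed in the 4 comparisons. Their median log2 ratio per array lay between -0.28 and 0.79 on the 11 arrays, and it was 0.26, 0.38 and 0.79 on the double arrays, where Pnpla2 was lowest. Adipoq, the adipokine gene that defines fat cells, was at 0.89, 0.72 and 1.45 on those arrays. Cidec, a droplet fusion protein of fat cells, was at 0.26, 0.40 and 0.34 there, while Fabp4, a fatty acid carrier, was at 0.43, -0.29 and -0.98 and Retn, the gene of resistin, at -0.43, 0.36 and -0.59. Of the 4 tested markers, 2 thus had a double mean above 0, and the median of these means was 0.06. Endothelial markers had medians of 0.20, -0.42 and -0.41 on the double arrays and of -0.61, -0.65 and -1.16 on the direct arrays. Of the 4 tested, Cdh5, Cldn5 and Esam were called as lower on the direct arrays (limma, adjusted p = 0.0231, 0.00919 and 0.0306). The remaining marker, Tek, had a mean of 0.12 there. Muscle fibre markers had medians of -0.31, -0.17 and 0.65 on the alpha arrays. Their medians were -0.32, 0.14 and 1.06 on the double arrays and 0.30, 0.03 and 1.13 on the direct arrays. Of the 8 tested, 3 were called as higher on the alpha arrays, Acta1 at 1.08, Mb at 1.29 and Actn3 at 1.90 (limma, adjusted p = 0.0232, 0.0136 and 0.00217). The alpha means of 6 of the 8 were above 0, while Atp2a1 was at -1.55 and Myh2 at -0.53. On the direct arrays 3 were called as higher, Acta1 at 1.91, Myh2 at 1.43 and Tnnt3 at 1.43 (limma, adjusted p = 0.00392, 0.0445 and 0.00473). There 5 of the 8 means were above 0, while Myh1 was at -0.99, Ckm at -0.43 and Actn3 at -0.03. Over all genes, 16.4%, 0.00879%, 2.55% and 13.8% were called on the alpha, beta, double and direct arrays. The share called as higher was 11.1% on the alpha and 5.54% on the direct arrays, and 8.23% were called as lower on the direct arrays. The part of these cell types in the values of the lipid genes was not tested.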

How the data were processed

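Per the labels, Cy5 marked the knockout and Cy3 the reference. The deposited value table gives 1 linear ratio of Cy5 to Cy3 per probe and array; how they were scanned, background-corrected and scaled is not given by these sources, and the values show 1 scaling factor per array. Ratios of 0 or below and the repeated top value (1e+05 times the factor) were treated as undefined. Ratios that equal the factor times a fraction of whole numbers of at most 10 come from dim or equal signals and were dropped (tolerance 0.00055); the rule reads the ratio, not the signal. Of 40928 probes, 32443 had 1 symbol, 44 several and 8441 none. Log2 ratios were centred on the median gene of each array and averaged over probes. Genes measured on 2 or more arrays in each group entered a fit of group means (limma 3.58.1, R 4.3.3; two-sided, tested on simulated data). Because control RNA served as reference, its own spread is left out.

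On 6 arrays, all of them against floxed RNA, the channel labels name another knockout than the title, and groups follow the titles. The alpha, beta and double groups each hold such arrays. Grouping by channel labels left the direct means unchanged. It moved the alpha mean of Lpin1 from 1.44 to 1.12 and the double mean of Pnpla2 from -1.59 to -0.79. The authors' deposited tables, limited per the labels to folds of at least 2 and at most 0.7, give mean ratios relative to floxed mice. They equalled the title groups within 0.006 for 99.9% to 100% of 9614 lower and 5990 higher probes, for beta only without beta 3. The planned design took the table as normalized ratios. All 10 genes were named in every comparison, with called genes of the other lists, or otherwise those of largest absolute log2 ratio. Genes and lists were chosen with earlier results of these data known. Alternatives covered centring, dim signals, beta 3, weights, scaling, dye, grouping, block, probes, filters and left-out arrays. After removal of group means, same-numbered arrays against floxed RNA gave r = 0.14 to 0.53 (7 pairs), and same-numbered pairs with a direct array -0.38 to 0.33 (8 pairs). Pairs of other numbers gave -0.53 to 0.36 (30 pairs). With 2 beta arrays, the deviations of 1 mirror those of the other, which fixes the signs of their pairs. A pairing by number is therefore not established by these values, and the labels give none. The number of arrays limits the precision. Promoters came from RefSeq for 8 of the 10 genes.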

Additional observations from a re-analysis of the deposited data

Results flagged for a closer look

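Lpin1 differed between genotypes in how far its log2 ratios added up. The double mean minus the sum of the alpha and beta means was -2.20 (limma, adjusted p = 0.0348), a test of the difference itself. It missed the threshold with beta 3 kept (-1.61; limma, adjusted p = 0.301), by channel labels (-0.78; 0.547), with dim signals kept (-2.66; 0.0683), without centring (-2.31; 0.402), with 1 array of every group required (-2.20; 0.0529), on 12 uncentred arrays with dim signals (-1.25; 0.869), or without alpha 1, alpha 3, beta 1, beta 2, double 2 or double 3 (0.072 to 0.183). All 3 double arrays, at 0.61, -0.08 and 0.03, lay below the alpha and beta arrays. Bright minus dim probes stood at 1.49, -0.10 and -2.30 on the double arrays, against 0.80 to 2.28 on the alpha arrays, beta 1 and beta 2, and the part of this trend in the value was not tested. No group had enough arrays to look for single outlying arrays.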

How the results depend on the processing

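For the 7 tested genes, 1400 values were recomputed over 8 comparisons: 1208 kept direction and side of the threshold, 106 had the other sign without passing in either, 73 lost a call, 13 gained one and 0 passed with the other sign. Only the values called above could lose a call, and these were a minority of the 1400. The 73 lost calls are therefore to be read against the refits of those values, not against the 1400. Each called value was recomputed in 14 other settings, given below, and in 11 fits without 1 array. In the 14 settings the calls passed in 2 (Dgat2, direct arrays) to 11 (Lpin1, alpha arrays). In the 11 fits they passed in 2 (Dgat2, direct arrays) to 10 (Lpin1, direct arrays). Counts of all genes called are given as alpha, beta, double, direct, double against alpha and against beta through floxed RNA, and non-additive, where the values reported above are 1872, 1, 290, 1568, 14, 1 and 547. With beta 3 kept they were 284, 0, 29, 266, 0, 0 and 0. On 12 arrays, not centred and with dim signals, they were 4, 0, 0, 0, 0, 0 and 0. Array weights on 12 arrays gave 4952, 1541, 850, 945 through alpha, 109 through beta and 2646 non-additive, the direct count staying within 1.5 times. Without centring, the alpha, beta, double, direct, 2 indirect and non-additive counts were 182, 0, 41, 2000, 0, 0 and 6. With dim signals kept, beta was 0, double 72, through alpha 2 and non-additive 204. Scale normalization gave beta 411, double 521, through alpha 51, through beta 6 and non-additive 1102. A dye term gave alpha 573, beta 0, double 1, direct 14 and non-additive 1730. Arrays of each comparison alone gave beta 54 and 0 for double, direct and both indirect comparisons. Grouping by channel labels gave beta 117, double 2, direct 976 and 0 for both indirect and the non-additive comparisons. With 1 array of every group required, beta was 0, through alpha 3 and non-additive 323. Chosen after seeing the data, probes as features gave alpha 3640, double 460, direct 2913, through beta 2 and non-additive 1444, and centring on genes measured on all 11 arrays gave beta 0 and through alpha 9.

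The replicate block gave beta 0 and through alpha 6, and 0 and 4 on the arrays against floxed RNA only. Of the calls named for the 10 genes, both blocks ended that of Dgat2 on the direct arrays (adjusted p = 0.0589 and 0.058 in limma), and the second added Plin4 on the alpha arrays. Leaving out 1 array at a time gave 317 to 2099 (alpha), 0 to 3 (beta), 63 to 311 (double), 335 to 1700 (direct), 1 to 73 (through alpha), 0 to 3 (through beta) and 0 to 1215 (non-additive). The lipolysis minus synthesis difference of the beta arrays was -0.30 with dim signals kept, 0.81 with beta 3, -0.21 on 12 uncentred arrays and -0.10 by channel labels. Left-out arrays gave it as 0.04 to 0.34 (beta), -0.59 to 0.04 (alpha), -0.71 to -0.32 (double) and 0.26 to 0.95 (direct).

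Of 14 other settings, the Pnpla2 call on the double arrays passed in 7, with values from -1.81 to -0.79. It was lost with dim signals kept (limma, adjusted p = 0.095), with beta 3 kept (0.116), uncentred (0.147) and on 12 uncentred arrays with dim signals (0.857). A dye term (0.754), the arrays of the comparison alone (0.326) and channel labels (0.433) ended it as well. The dye term also ended Abhd5 on the alpha arrays (limma, adjusted p = 0.242) and Pnpla2, Lpin1 and Dgat2 on the direct arrays (0.215, 0.177 and 0.365). Lpin1 still passed with it on the alpha arrays (0.0407) and for the non-additive value (0.00688). Lpin1 passed in 11 on the alpha and 10 on the direct arrays, Abhd5 in 10 on the alpha arrays, Pnpla2 in 6 and Dgat2 in 2 on the direct arrays, and the non-additive value of Lpin1 in 8. The causes were not tested. Array number, dim signals and the brightness trend limit all values.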
